A study of Homo sapiens with 4 samples.

Results

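CDH18, CDH12, CDH10, CDH9 and CDH6 lie in this order on the short arm of human chromosome 5, separated by long stretches with few protein-coding genes. Lamin B1 enrichment over these genes and the 4 deserts between them was described in 2 prostate cancer cell lines, over 325 of the 71436 bins of 40 kb that carry values for LNCaP and VCaP alike. The members were chosen by their position in build hg19, between 18500000 and 31500000 of chromosome 5. The stretch was picked with the lamin B1 values known, among them a long run associated in LNCaP only, so every level and line difference below is a description, with no test. Of the 325 bins, 51 had their midpoint in a gene, 245 in a desert and 29 in the 2 flanks of the window.

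Both are established cell lines, LNCaP labelled as prostate adenocarcinoma and VCaP as metastatic prostate cancer of the bone. Each line had 1 library made with a lamin B1 antibody and 1 input library made without antibody, from unperturbed cells in continuous culture that were fixed with formaldehyde. The deposited value of a bin is the log2 enrichment of antibody over input library, and a deposited model state labels each bin as associated or not. With 1 library per group there was no replicate check and no test between the lines. The number of reads per library is not given in the files used here, so the depth is unknown. The error printed is a noise SD, taken from bins 3 apart in the same library pair, and covers no difference between cultures. For a single bin it was 0.15 log2 units in LNCaP, 0.22 in VCaP and 0.27 for the difference of the lines. A difference is called past noise when it exceeds 2 noise SD, which is 0.54 for a single bin.

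Cadherins are calcium-dependent adhesion proteins that join neighbouring cells. The type II cadherins are a branch of the family with a conserved pair of tryptophans at their binding face, and many of them are known from the developing nervous system, where different neurons carry different members. CDH6 is also called K-cadherin for its expression in kidney. Lamin B1 is part of the lamina under the inner nuclear membrane. Chromatin that touches the lamina is commonly gene-poor and little transcribed, and long genes amid gene deserts are frequent members of lamina-associated domains. RNA was not analysed here.

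All 5 genes were found in the RefSeq gene table, which is of build GRCh38.p14 and was used here for names, order and lengths only. Its gene lengths lay close to the spans used here for CDH12 (1102672 against 1104000 bases), CDH10, CDH9 and CDH6. The RefSeq gene of CDH18 is 1104418 bases long, 2.14 times the 516000 bases used here, since it includes transcripts that begin further out. The span used here ends near an inner RefSeq start, 588 kb from the outermost one, so part of the desert next to it is inside the longest CDH18 transcripts. Between neighbouring members the table lists 80 genes, of which 45 are long noncoding RNA genes, 32 are pseudogenes and 2 are protein-coding. The latter are PRDM9, which encodes the histone methyltransferase that places recombination hotspots in meiosis and lies between CDH12 and CDH10, and LOC124901178 between CDH9 and CDH6. Counted between the RefSeq ends of the members, the stretches from CDH18 to CDH12 and from CDH10 to CDH9 hold no protein-coding gene. The desert used here from CDH18 to CDH12 also includes the outer part of CDH18 itself.

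The start regions of CDH12 and CDH10 are shown because the bins at these 2 gene starts had the largest line differences (-1.48 and -0.93 log2 units, lower in VCaP). That of CDH9, a gene nearly as long as CDH10, is set beside them, and its bin differed by 0.40, within noise. They cover 250 bases before to 50 after the outermost RefSeq start, on the minus strand, with each CpG in capitals. In GRCh38.p14 they are chr5:22853295-22853594 (CDH12), chr5:24644929-24645228 (CDH10) and chr5:27038537-27038836 (CDH9).
CDH12: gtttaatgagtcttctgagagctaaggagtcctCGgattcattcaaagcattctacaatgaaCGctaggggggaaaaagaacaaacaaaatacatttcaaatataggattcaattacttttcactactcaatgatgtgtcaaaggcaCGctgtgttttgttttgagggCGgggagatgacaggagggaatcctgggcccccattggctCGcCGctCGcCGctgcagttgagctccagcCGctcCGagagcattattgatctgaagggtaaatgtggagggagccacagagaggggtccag
CDH10: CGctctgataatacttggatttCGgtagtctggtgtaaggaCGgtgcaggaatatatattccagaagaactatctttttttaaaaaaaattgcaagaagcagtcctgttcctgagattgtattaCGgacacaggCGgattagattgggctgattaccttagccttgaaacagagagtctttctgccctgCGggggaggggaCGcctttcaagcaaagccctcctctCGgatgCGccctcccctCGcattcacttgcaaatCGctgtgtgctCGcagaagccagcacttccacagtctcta
CDH9: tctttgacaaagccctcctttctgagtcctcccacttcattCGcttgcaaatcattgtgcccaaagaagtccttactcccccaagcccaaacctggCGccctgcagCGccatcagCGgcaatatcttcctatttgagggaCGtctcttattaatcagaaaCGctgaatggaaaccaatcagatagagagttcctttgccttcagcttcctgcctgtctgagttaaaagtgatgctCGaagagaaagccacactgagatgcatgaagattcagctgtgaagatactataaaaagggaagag

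The CDH12 start region has 10 CpG and 48.3% GC, that of CDH10 has 12 CpG and 48.3% GC, and that of CDH9 has 7 CpG and 46.7% GC. Over the 35116 start regions in the table the medians were 14 CpG and 58.7% GC, so all 3 were below the middle of the table in both. The outermost CDH18 start region has 5 CpG and 48.7% GC, whereas the inner one at 588 kb has 18 CpG and 64.7% GC. The table gave 8 start regions for 4 of the genes, and CDH6 is named only. The longest run of bases shared by 2 of the outermost start regions was CAAAGCCCTCCT, 12 bases common to CDH10 and CDH9. It occurs on either strand in 7 of all start regions (0.0199%). These windows of 300 bases are far smaller than a 40 kb bin, and no lamin B1 value can be assigned to them.

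Over the whole window the associated state was less frequent than in the genome in both lines. In LNCaP 101 of 325 bins were associated (31.1%), against 37.9% of all bins. In VCaP 14 bins were associated (4.31%), against 44.4% of all bins. The rest of the short arm had 44.4% associated bins in LNCaP and 48.8% in VCaP, over 834 bins. LNCaP alone was associated in 87 bins of the window (17.2% in the genome), and VCaP alone in 0 (23.8% in the genome). All 14 VCaP bins were also associated in LNCaP. The model state was not a cut at 0: VCaP enrichment was over 0 in 168 bins of the window, and LNCaP enrichment in 143. In the genome it was over 0 in 47793 of 71436 bins in VCaP and 40636 in LNCaP, a larger share in both lines.

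**Figure D1:**
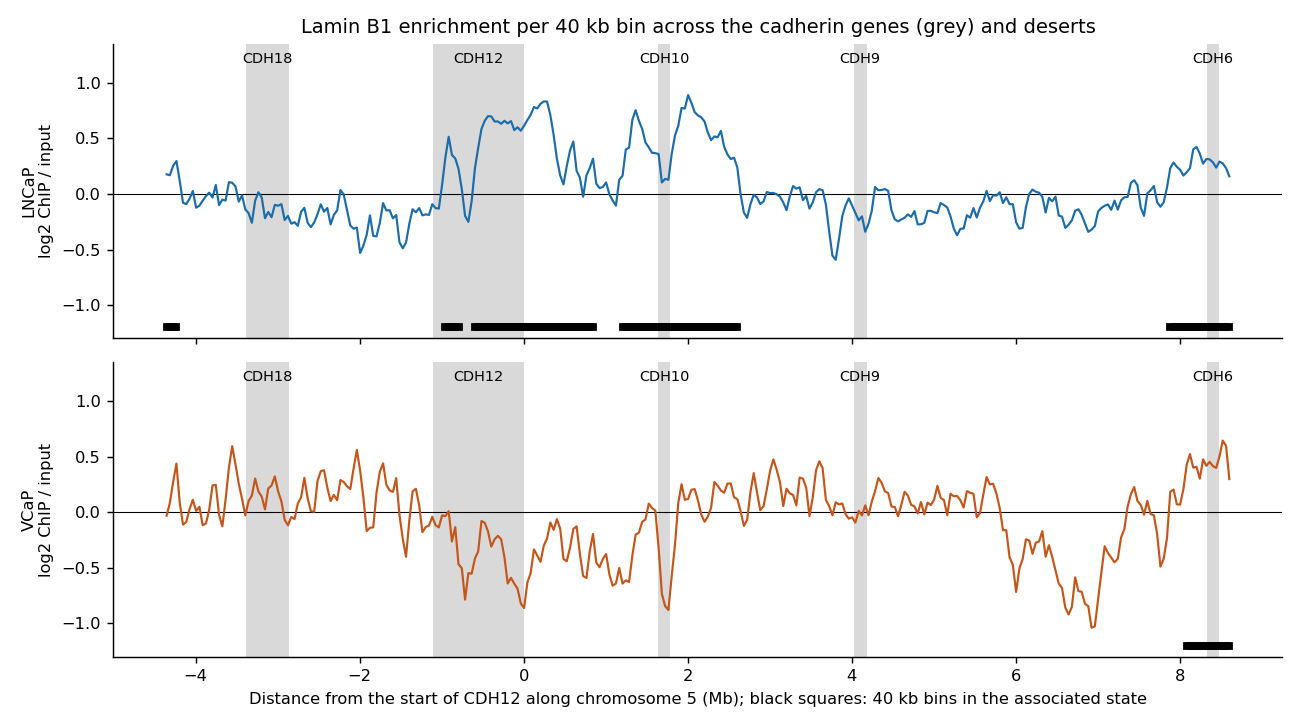
Log2 lamin B1 enrichment (y axis) of each 40 kb bin in LNCaP (top) and VCaP (bottom) against the distance in Mb from the start of CDH12 along the chromosome, with genes in grey and associated bins as black squares. LNCaP has associated runs over CDH12, CDH10 and CDH6, whereas the 14 associated bins of VCaP all lie at CDH6.

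LNCaP had 5 associated runs in or reaching into the window. A run from 17400001 to 18640000 reached in from below with 4 bins. The next was short, at 200 kb from 21880001 to 22080000, inside CDH12. A run of 1480 kb from 22240001 to 23720000 began in CDH12 and went on beyond the start of the gene. The next, of 1440 kb from 24040001 to 25480000, held all of CDH10. The last, of 760 kb from 30720001 to 31480000, held CDH6. The single VCaP run, of 1200 kb from 30920001 to 32120000, held CDH6 and left the window at its upper end. The lines shared 560 kb of it, from 30920001 to 31480000.

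CDH12, the brain cadherin also called N-cadherin 2, is 1104 kb long from 21750000 to 22854000 and is read from the minus strand. Enrichment was positive over most of the gene in LNCaP and negative over most of it in VCaP. Over its 27 bins LNCaP had a lowest value of -0.25, a median of 0.51 and a highest of 0.70, and VCaP had a lowest of -0.82, a median of -0.31 and a highest of 0.01. VCaP lay above LNCaP in 1 of the 27 bins, although the 2 ranges of bins overlap. The mean was 0.37 ± 0.05 in LNCaP and -0.35 ± 0.07 in VCaP (noise SD), and the difference was -0.72 ± 0.09. In LNCaP 20 of the bins were associated (37.9% of all bins in the genome) and in VCaP 0 (44.4% of all bins). Lower in VCaP past noise were 19 of 27 bins, against 7.89% of all bins in the genome, and higher past noise were 0, against 19.1%.

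The line difference grew along CDH12 from its end to its start. In 4 parts of the gene in this direction, LNCaP had means of 0.19, 0.06, 0.65 and 0.62, and VCaP had -0.10, -0.52, -0.19 and -0.63. The differences were -0.29 ± 0.18, -0.57 ± 0.18, -0.85 ± 0.18 and -1.25 ± 0.19. The first is within noise and the other 3 are past it. With the genome medians set to 0 the first was -0.43, past noise. The bin that holds the gene start, from 22840001 to 22880000, had 0.61 in LNCaP and -0.86 in VCaP, with VCaP minus LNCaP at -1.48. In VCaP 0.735% of all genome bins were as low as this one. LNCaP had a mean of -0.23 in the 10 bins below the gene and of 0.73 in the 10 bins above it, so CDH12 spans an ascent in that line. The VCaP means there were -0.07 and -0.40.

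LNCaP had a dip inside CDH12. It is the gap between the 2 LNCaP runs, from 22080001 to 22240000, which is 614 to 774 kb into the gene. Its 4 bins had a mean of -0.12 ± 0.13 in LNCaP, and the 5 bins on either side had 0.35 ± 0.12 and 0.52 ± 0.12. In VCaP the same 4 bins had -0.60 ± 0.19, and the 5 bins on either side had -0.18 ± 0.17 and -0.22 ± 0.17. The dip was chosen from the LNCaP state. VCaP was also at its lower values there, but by less than 2 noise SD from either side. RefSeq places inner CDH12 starts 641 and 963 kb from the outermost one in GRCh38.p14, with 13 and 1 CpG in their start regions. The former lies inside the dip as printed, and the latter outside it. The signal sits about 1 bin towards higher coordinates, so the edges of the dip are uncertain by that much. Moved back by 1 bin, the dip begins further into the gene than the start at 641 kb, which then lies outside it as well. A link of either start with the dip was not tested.

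CDH10, a cadherin of the brain, spans 158 kb from 24487000 to 24645000 on the minus strand and covers 4 bins. In LNCaP these read 0.36, 0.10, 0.14 and 0.13 from the gene end to the gene start, all positive and all associated. In VCaP they read -0.32, -0.73, -0.84 and -0.88, all negative and none associated, so the lines do not overlap here. The means were 0.18 ± 0.13 and -0.69 ± 0.19, and the difference was -0.88 ± 0.23. Each of the 4 bins was lower in VCaP past noise, against 7.89% of all bins in the genome. The associated state holds 37.9% of all bins in LNCaP and 44.4% in VCaP. In VCaP 0.666% of all genome bins were as low as the bin beside the gene start.

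CDH10 was also a local low point in both lines. In LNCaP the gene minus neighbour difference was -0.33 ± 0.15 for the 10 bins on its lower side and -0.51 ± 0.15 for the 10 bins on its upper side. The VCaP values were -0.49 ± 0.23 and -0.71 ± 0.23, so all 4 differences are past noise in the same direction. Against both sides together the difference was -0.42 ± 0.14 in LNCaP and -0.60 ± 0.21 in VCaP. Over the 8 alternative ways of processing it ranged from -0.50 to -0.42 in LNCaP and from -0.83 to -0.59 in VCaP. New zero points are among the 8 and cannot change a difference within a line. In LNCaP the low point did not leave the associated state.

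**Figure D2:**
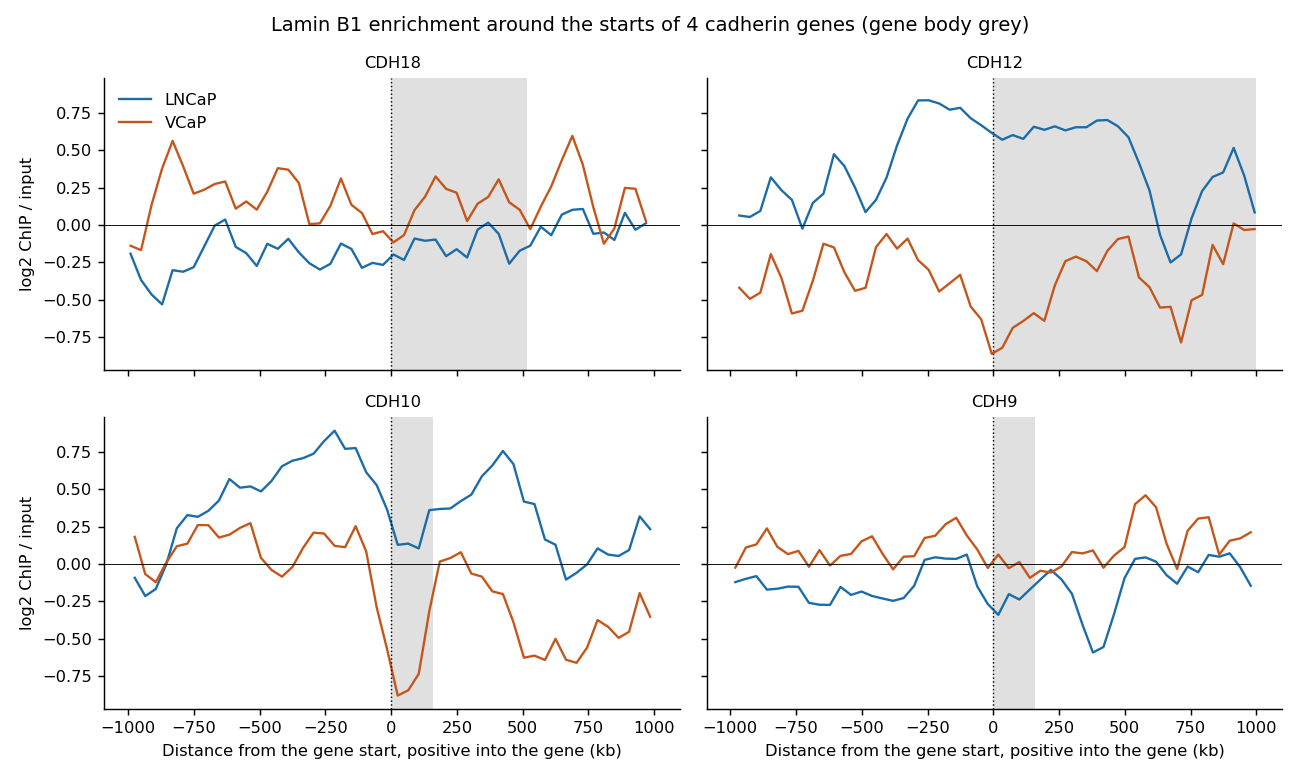
Log2 lamin B1 enrichment (y axis) in LNCaP (blue) and VCaP (orange) within 1000 kb of the start of 4 genes on the minus strand (for CDH18, of the span used here), with positive distances (x axis, kb) running into the gene and the gene body in grey. At CDH10 both lines fall inside the gene, and at the start of CDH12 LNCaP stands at 0.61 while VCaP reaches -0.86.

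CDH18, a cadherin of the central nervous system, was taken from 19473000 to 19989000 and covers 13 bins. LNCaP values ran from -0.26 to 0.02 with a median of -0.16, and VCaP values ran from -0.12 to 0.32 with a median of 0.15. VCaP lay above LNCaP in all 13 bins, with overlapping ranges. No bin was associated in either line, against 37.9% of all bins in LNCaP and 44.4% in VCaP. The means were -0.14 ± 0.07 and 0.14 ± 0.11, and the difference of 0.28 ± 0.13 is past noise. It was 0.14 once the genome median of each line (0.06 in LNCaP and 0.19 in VCaP) was set to 0 and 0.19 after quantile normalization, both within noise. The VCaP mean of CDH18 is thus above 0 but below the middle of that line. None of the 13 single bins differed past noise, where 7.89% of all bins were lower in VCaP and 19.1% higher. At the RefSeq length of the gene, over 27 bins, the means were -0.18 and 0.14 and the difference was 0.32 ± 0.09. CDH18 did not stand out from the 10 bins on each side, with -0.03 ± 0.09 in LNCaP and -0.02 ± 0.14 in VCaP.

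CDH9, also called T1-cadherin, spans 159 kb from 26880000 to 27039000 and covers 4 bins. In LNCaP they read -0.17, -0.24, -0.20 and -0.34 from gene end to gene start, and in VCaP -0.09, 0.01, -0.03 and 0.06. VCaP was above LNCaP in all 4 bins with no overlap, and neither line was associated. The means were -0.24 ± 0.13 and -0.01 ± 0.19, and the difference of 0.23 ± 0.23 is within noise. With the genome medians set to 0 it was 0.09. The ranges of bins then overlapped, and the bin at the gene end was the lower in VCaP. CDH10, of nearly the same length, differed between the lines by -0.88, past noise, whereas the sign of the CDH9 difference is not settled.

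CDH6 spans 137 kb from 31193000 to 31330000 and was associated in both lines. Its 3 bins read 0.31, 0.29 and 0.24 in LNCaP and 0.45, 0.42 and 0.40 in VCaP, in order of position. VCaP was the higher in each bin with no overlap. The means were 0.28 ± 0.15 and 0.42 ± 0.22, and the difference of 0.15 ± 0.27 is within noise. It was 0.01 with the genome medians set to 0 and -0.03 after quantile normalization, so its direction depends on the scaling. CDH6 exceeded the desert below it by 0.36 ± 0.15 in LNCaP and by 0.53 ± 0.23 in VCaP, both past noise. From medians of the bins the VCaP value was 0.40, within noise. It did not differ past noise from the 10 bins on each side (0.07 ± 0.16 and 0.08 ± 0.24), which for the most part belong to the same associated run. The next protein-coding gene above CDH6 in the RefSeq order is DROSHA, which encodes the nuclease that makes the first cut in microRNA precursors.

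**Figure D3:**
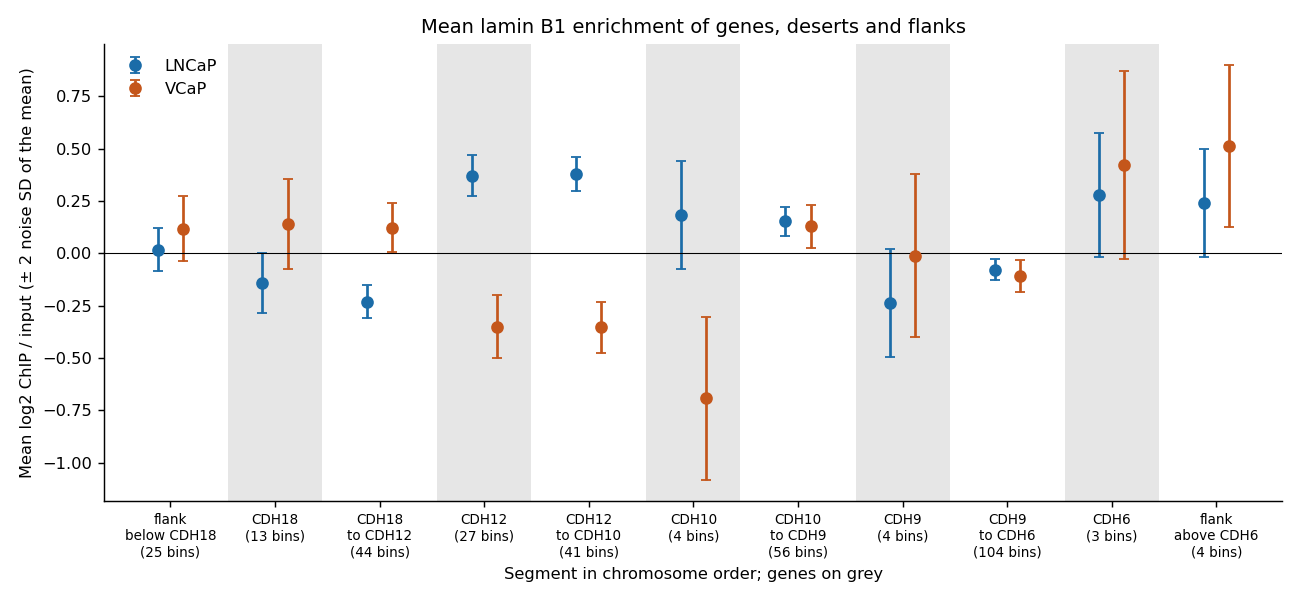
Mean log2 lamin B1 enrichment (y axis) of each gene (on grey), desert and flank in chromosome order, for LNCaP (blue) and VCaP (orange), with bars of 2 noise SD of the mean that cover bin-to-bin noise only. The means lie on opposite sides of 0 from CDH18 through CDH10, with the sign of the difference turning between the CDH18 to CDH12 desert and CDH12, and lie near each other in the deserts on either side of CDH9.

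The deserts differed among themselves as well. From CDH18 to CDH12, over 44 bins, LNCaP had a mean of -0.23 ± 0.04 and VCaP of 0.12 ± 0.06, the latter again below the VCaP genome median. VCaP was above LNCaP in all 44, with a difference of 0.35 ± 0.07, and 6 bins (13.6%) were higher past noise, fewer than the 19.1% of all bins. With the genome medians set to 0 the difference was 0.22. From CDH12 to CDH10, over 41 bins, the order was the opposite, with 0.38 ± 0.04 in LNCaP and -0.35 ± 0.06 in VCaP. VCaP was above in 0 of the 41 bins, the difference was -0.73 ± 0.07, and 28 bins (68.3%) were lower past noise, against 7.89% of all bins. Its means were close to those of CDH12 beside it, 0.37 and -0.35.

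The desert from CDH10 to CDH9 had means of 0.15 ± 0.03 and 0.13 ± 0.05 over 56 bins, but the lower and upper parts went in opposite directions. In the 1120 kb next to CDH10 the means were 0.40 in LNCaP and 0.08 in VCaP, and their difference was -0.32 ± 0.09. In the 1120 kb next to CDH9 they were -0.10 and 0.17, and their difference was 0.27 ± 0.09. All 21 associated LNCaP bins of this desert were in the former part. The desert from CDH9 to CDH6, 4154 kb long, had -0.08 ± 0.03 in LNCaP and -0.11 ± 0.04 in VCaP over 104 bins. In 4 stretches of 1040 kb the differences were 0.25, 0.06, -0.43 and -0.01, each ± 0.09, and the first and the third are past noise. With the genome medians set to 0, the stretch next to CDH9 on this side had 0.12 and the 1120 kb on its other side 0.14, both within noise, whereas the third stretch had -0.56. The whole deserts from CDH10 to CDH9 and from CDH9 to CDH6 then differed by -0.16 and -0.17, past noise, where the deposited values gave -0.02 and -0.03.

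Genes were then set against deserts. Over all bins, the genes lay above the deserts in LNCaP (0.17 against 0.02, a difference of 0.15 ± 0.04) and below them in VCaP (-0.18 against -0.05, a difference of -0.13 ± 0.06). Of the 51 gene bins, 27 were associated in LNCaP (52.9%, against 37.9% of all bins) and 3 in VCaP (5.88%, against 44.4%). Of the 245 desert bins, 66 were associated in LNCaP (26.9%) and 7 in VCaP (2.86%). The VCaP difference was -0.11 after quantile normalization, within noise. The contrast rests on CDH12, which holds 27 of the 51 gene bins: without it the differences were -0.07 in LNCaP and 0.06 in VCaP, both within noise. With each gene and each desert counted once they were 0.04 and -0.05, and with CDH18 at its RefSeq length 0.05 and -0.04, all within noise. Gene means ranged from -0.24 to 0.37 in LNCaP and from -0.69 to 0.42 in VCaP, and desert means from -0.23 to 0.38 and from -0.35 to 0.13, so the ranges of both kinds overlap in both lines.

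Against its own neighbouring deserts, CDH12 differed by 0.31 ± 0.06 in LNCaP (0.60 from medians of the bins) and by -0.24 ± 0.09 in VCaP. Against the 10 bins on each side CDH12 differed by 0.12 ± 0.08 in LNCaP and -0.11 ± 0.11 in VCaP, both within noise. From medians of the bins the former was 0.30. CDH10 differed by -0.07 ± 0.13 and -0.62 ± 0.20, of which the VCaP value is past noise. CDH18 did not differ past noise from its desert (0.09 ± 0.08 and 0.02 ± 0.12). CDH9 differed by -0.24 ± 0.13 and 0.02 ± 0.20, both within noise. Its LNCaP value exceeded 2 of that noise SD with the averaging undone (-0.32), with values moved 1 bin upstream (-0.26) and after quantile normalization (-0.28).

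**Figure D4:**
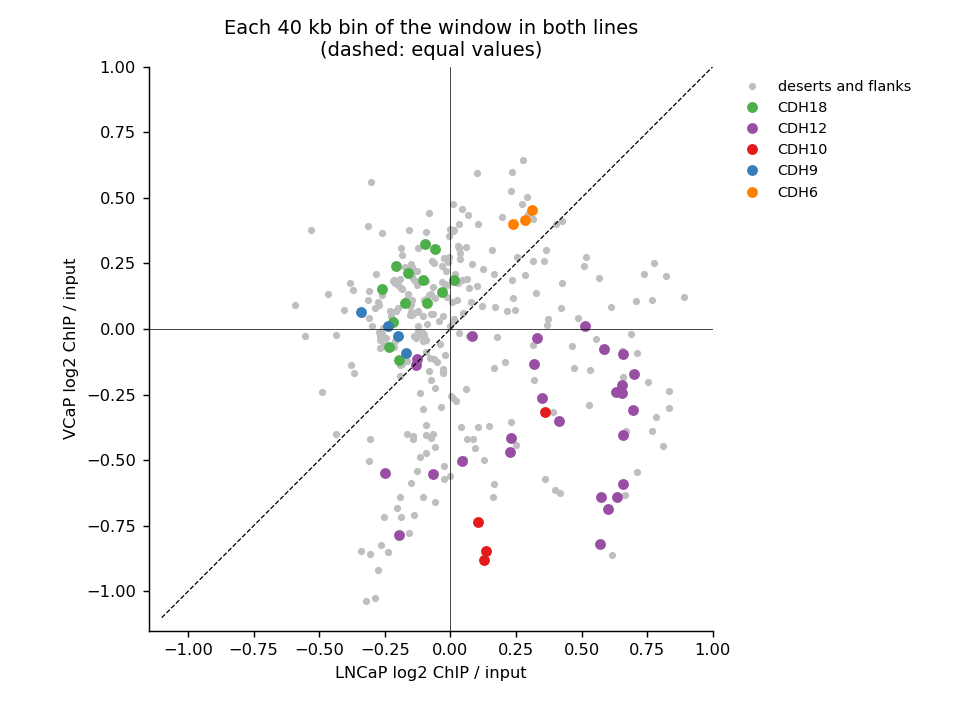
Log2 lamin B1 enrichment of each 40 kb bin of the window in LNCaP (x axis) and VCaP (y axis), with the bins of each gene in its own colour, deserts and flanks in grey, and a dashed line of equal values. The 13 bins of CDH18, the 4 of CDH9 and the 3 of CDH6 lie above the line, and those of CDH12 (but 1) and CDH10 lie below it.

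The lines did not vary together across the window. Pearson r over its 325 bins was -0.0657 and Spearman rho was -0.0173, as a description, since neighbouring bins share averaged entries. Over the 834 other bins of the short arm r was 0.449, and over all bins of the genome it was 0.281. After the mean of each gene, desert or flank was subtracted, r in the window was 0.252, and it was 0.512 within the desert from CDH9 to CDH6. In all, 68 of the 325 bins were lower in VCaP past noise (20.9%) and 7 were higher (2.15%), where the genome has 7.89% and 19.1%. The lower count was 38 with the averaging undone and 91 with the genome medians set to 0. It was 85 after quantile normalization and 91 with noise taken from the line difference itself. In the same order the higher count was 5, 4, 6 and 31. The genome shares at these settings are not given here, so these counts cannot be set against the genome. The VCaP values of the whole genome are higher than those of LNCaP by 0.12 on average, and those of the window had a mean difference of -0.10. The median difference in the window was 0.05, and VCaP was above LNCaP in 175 of its 325 bins.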

How the data were processed

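Lamin B1 ChIP-seq was made in LNCaP and VCaP, with 1 antibody and 1 input library each, grouped by the titles of the samples. The authors deposited log2 enrichment of antibody over input and a model state per entry, AD or iAD. AD had the higher mean and was taken as associated. The submitters' processing notes name STAR and hg19. How the libraries were scaled to each other is not given in the sources used here. The values behave as a mean of each entry and the 2 before it: undoing that mean brought the median absolute log2 value of entries over 40 kb from 0.21 to 0.0047 in LNCaP and from 0.33 to 0.0075 in VCaP. The signal thus sits about 1 bin towards higher coordinates.

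Bins of 40 kb with a value in both lines were assigned to a gene or desert by their midpoint and averaged with equal weight. The noise SD is the median absolute difference of bins 3 apart, scaled to the SD of a normal distribution, over the square root of 2. For n bins it is divided by the square root of n over 3, and that of a line difference adds both lines in quadrature. Gene positions are those of the selection rule, rounded to kb. All 5 members and all deserts and flanks are named. The noise and the undone mean were tested on simulated data. The members, lists and contrasts were chosen with earlier results of these data known. Alternatives are the undone mean, values moved by 1 bin, medians, bins wholly inside, bins away from borders, other zero points, quantile normalization, other state rules and window limits. Added after seeing the data were equal weights, CDH18 at its RefSeq length, leaving out CDH12, the comparison with 10 bins on each side, noise from the line difference itself the alternatives of the counts of bins past noise, and the genome medians set to 0 for single deserts and parts of genes and deserts. Other type II cadherin genes were not analysed here, since the reference tables are of GRCh38. Versions were matplotlib 3.10.9, pandas 2.3.3, numpy 2.4.6, scipy 1.17.1 and Python 3.11.15.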

Additional observations from a re-analysis of the deposited data

Results flagged for a closer look

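Enrichment had opposite signs in the lines, past noise in both, in several places. These differences were not tested, with 1 library pair a line, and signs are relative to the deposited 0 (genome medians 0.06 in LNCaP and 0.19 in VCaP). LNCaP averaged 0.37 over CDH12, where VCaP averaged -0.35. The desert from CDH18 to CDH12 had -0.23 and 0.12, and the desert from CDH12 to CDH10 had 0.38 and -0.35. The former desert lay below the genome median in both lines, so its opposite signs depend on the deposited 0. The contrast of genes with deserts was 0.15 in LNCaP and -0.13 in VCaP. It was within noise in VCaP after quantile normalization (-0.11) and in both lines with each gene and desert counted once. Without CDH12 its signs changed, to values within noise. The contrast of CDH12 with its neighbouring deserts was 0.31 and -0.24. Against the 10 bins on each side it was 0.12 ± 0.08 and -0.11 ± 0.11, both within noise. The desert from CDH12 to CDH10 had means close to those of CDH12 in both lines.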

How the results depend on the processing

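The 33 results were recomputed in 255 alternative values. Of the values that answer a comparison, 42 stayed close (within 1 noise SD, the exact binomial interval of a share or 1.5 times a count), 18 moved and 3 were labelled as changed in sign. Of the other values 188 stayed close and 4 moved. The labels do not count every change of sign. The correlation of the lines changed sign but is among those that moved. Some values near 0 changed sign and still count as close. One is the CDH6 line difference, -0.03 after quantile normalization. Another is CDH9 minus its neighbouring deserts in VCaP, -0.07 as a median. Part of those that stayed close could not move. A new zero point leaves contrasts within a line and the correlation unchanged, and with bins of equal size the share of length equals the share of bins. The CDH12 line difference was -0.86 with the genome medians set to 0 and -0.82 after quantile normalization, and kept its sign over all 8 alternatives. The CDH10 line difference ranged from -1.04 to -0.85. The line difference of the deserts was -0.08 and is not stable: -0.21 centred, -0.17 after quantile normalization and 0.0508 as a median. Genes minus deserts was 0.19 as a median in LNCaP. Counted once each, genes and deserts gave 0.0355 in LNCaP and -0.0454 in VCaP, and with CDH18 at its RefSeq length 0.0532 and -0.0428. Without the 27 bins of CDH12 the values were -0.0735 and 0.0650, of the other sign but within noise. The correlation of the lines was 0.0660 with the mean undone. The associated share was 44.0% in LNCaP and 51.7% in VCaP for enrichment over 0, and 42.8% and 56.9% for a running median of 5 bins over 0. For enrichment over the genome median it was 36.3% in LNCaP and 22.8% in VCaP. By definition as many genome bins lie above that median as below it. Over the genome, 40636 (LNCaP) and 47793 (VCaP) of 71436 bins had enrichment over 0, a larger share than in the window. The genome share for the running median is not given here. Bins lower in VCaP past noise numbered 38 with the mean undone and 91 when centred. They numbered 85 after quantile normalization and 91 with noise from the difference itself. Those higher past noise numbered 5, 4, 6 and 31 in the same order. The genome shares of these counts are not given here. The cause of these changes was not tested. No paired analysis was possible because the lines have a single library pair each. Depth is not known for any library.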

Other observations

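The desert from CDH9 to CDH6 held the deepest VCaP trough of the window. Its lowest bin, from 29760001 to 29800000, had a log2 enrichment of -1.04 in VCaP and -0.32 in LNCaP, and 0.211% of all VCaP bins were as low. Over the 1040 kb around it, from 29120001 to 30160000, VCaP had a mean of -0.59 ± 0.08 and LNCaP of -0.16 ± 0.05 (noise SD), and neither line was associated. The highest LNCaP bin of the window was in the desert beside CDH10, from 24840001 to 24880000, with 0.89 in LNCaP and 0.12 in VCaP.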
